A study of Mus musculus with 24 samples.

Results

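Implants of biphasic calcium phosphate (BCP), a granular ceramic bone substitute, were compared with and without bone marrow mesenchymal stromal cells (MSC) seeded on them. The 12 MSC-bearing samples of the 3 groups BCP+MSC, BCP+MSC+RvE1 and BCP+MSC+Treg were set against the 4 cell-free samples of the group BCP, so that 16 of the 24 sequenced samples entered the comparison. They were chosen by their labels alone: the other 8 samples, 4 of (dep)BCP+MSC+RvE1inj and 4 of (dep)BCP+MSC, came from toxin-treated mice and were left aside. Every host was a Foxp3-DTR/eGFP mouse of 8 to 9 weeks, male or female, whose Foxp3-expressing cells carry a toxin receptor that was not used in these 4 groups. Each mouse received a pair of constructs of the same kind under the skin of the back, and each sample came from a different mouse at week 2. All constructs held 40 mg of granules. BCP carried no cells, and the other 3 groups carried 800000 MSC per construct, grown from the marrow of C57BL/6J wild type or Foxp3eGFP mice. In BCP+MSC+RvE1 the seeded cells were primed with 10 nM of resolvin E1, a lipid mediator that helps inflammation to resolve, for the 36 h before implantation. In BCP+MSC+Treg they were cocultured for 36 h at a ratio of 1:1 with activated regulatory T cells (Treg) sorted from spleen. The RNA came from the whole construct, seeded cells and ingrown host tissue together, so seeded cells and host cells of the same kind, and fewer cells of a type and less RNA per cell, cannot be told apart.

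A ceramic implant under the skin is invaded by blood cells, macrophages, fibroblasts and vessels, which wall it off with collagen. MSC are precursors of osteoblasts, and once placed on a mineral surface they can deposit a bone matrix of type I collagen and acidic proteins that bind hydroxyapatite, among them bone sialoprotein. They also signal to immune cells, and the question put to the 4 groups was which transcripts the presence of MSC on the ceramic changed, whatever their priming.

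Read counts per gene were deposited for 51138 genes. The 16 samples held from 10567666 to 144417743 counts, and 2 of the 4 BCP samples, replicates 1 and 4, were among the 4 samples with under 20000000, beside BCP+MSC+RvE1 replicate 2 and BCP+MSC+Treg replicate 4. A level is a gene's count divided by its sample's total, given as CPM, with totals scaled by the trimmed mean of M-values, and 3 counts, taken as the smallest level the depth can show, came to between 0.0208 and 0.284 CPM; intervals and floors cover counting error only. Macrophage, matrix and vessel markers were present in every sample, with a mean log2 CPM of 7.59 or more over 28 macrophage genes. Xist was above the Y-linked genes in 1 of 4 BCP, 3 of 4 BCP+MSC, 0 of 4 BCP+MSC+RvE1 and 1 of 4 BCP+MSC+Treg samples. Markers of skeletal muscle, which lies under the implant pocket, varied widely, with a mean log2 CPM over 32 genes of 5.78, 8.07, 7.67 and 5.04 in BCP replicates 1 to 4 and from 2.69 to 9.10 with a median of 8.29 in the MSC-bearing samples. The lowest of these was BCP+MSC replicate 2 and the highest BCP+MSC+RvE1 replicate 3.

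Few single genes separated the MSC-bearing constructs from bare ceramic. The mean of the 3 group differences to BCP was tested for 30564 genes with edgeR's quasi-likelihood model, and no gene passed an adjusted p under 0.05, the smallest being 0.111 for Per2. At an unadjusted p under 0.05 there were 4061 genes, 13.3% of those tested, of which 2236 (7.32%) were higher and 1825 (5.97%) lower in MSC-bearing constructs. A gene is said to pass where its unadjusted p was under 0.05. With a log2 fold change of over 1 as well, 1189 genes (3.89%) were higher and 1105 (3.62%) lower. All 1189 higher genes and 1083 of the 1105 lower genes (3.54%) had the same sign in the 3 MSC groups. These 3 comparisons share the same 4 BCP samples, so agreement of sign among them is partly built in. In 203 genes (0.664%) that were higher and 124 (0.406%) that were lower, each of the 3 comparisons passed the unadjusted threshold on its own. DESeq2 called 70 genes at an adjusted p under 0.05 with all 24 samples and 82 with the 16 samples, and limma voom with sample weights called 0. Of the 86 genes chosen for naming 18 were among the 70, Ibsp, Nr1d1, Saa3 and Rapgef4 among the higher ones, and these 4 were also called with the 16 samples. Counts of list members that pass are to be read beside the 7.32% and 5.97% of all genes.

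These totals rested in part on BCP replicate 4. Without it they were 646 higher and 725 lower genes. Without the 4 samples under 20000000 counts, which include BCP replicates 1 and 4, they were 355 and 465, and without the 3 samples highest in immediate early genes, which include BCP replicates 3 and 4, they were 890 and 880. Over all 16 fits that left out 1 sample they ran from 646 to 1592 higher and 725 to 1362 lower. Higher genes made up 51.8% of the called genes, but 27.3% with offsets that take out each sample's trend over gene length, 41.0% with the share of counts in short genes as a covariate and 64.3% with DESeq2 on 24 samples.

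A stricter reading asks for which genes the 12 MSC-bearing values did not overlap the 4 BCP values. In 25 genes (0.0818% of those tested) every MSC-bearing sample was above every BCP sample, and in 21 (0.0687%) every one was below. Together these were 46 genes (0.151%). Labels dealt at random among the 1820 arrangements of 12 against 4 samples would give a proportion of 0.0011. The number of such genes is therefore near what chance gives, and lack of overlap alone does not set a gene apart from chance. Ibsp and Rapgef4 were the genes named by rule in the first set, and Per2 in the second. A further 13 genes at 1 CPM or more on average are named because their values were seen not to overlap.

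Ibsp, which encodes bone sialoprotein, the acidic matrix protein on which bone mineral nucleates, had the smallest p of the genes higher in MSC-bearing constructs. Ibsp (ENSMUSG00000029306.8, chromosome 5, 104299171 to 104311469 on GRCm38) was at 0, 0, 0.0241 and 0 CPM in BCP replicates 1 to 4, which amounts to 3 counts in all, every one of them in the deepest BCP library. It was at 0.546, 0.305, 0.497 and 15.4 CPM in BCP+MSC, 0.476, 2.17, 7.55 and 1.23 CPM in BCP+MSC+RvE1 and 0.171, 0.0971, 0.392 and 0.904 CPM in BCP+MSC+Treg. Every MSC-bearing sample was thus above every BCP sample and held more than 3 counts, and the highest was BCP+MSC replicate 4. Summed over samples and scaled to the libraries, the rate was 175 times that of BCP, with an exact 95% interval of 59.8 to 849.8 that covers counting error only. The fitted log2 fold change was 6.81 (SE 1.54, adjusted p = 0.2) and depends on the prior count at such levels. Each SE given here and below was derived from the F value of the test and is no separate measure of spread. The exact two-sided permutation test over the 1820 arrangements of 12 against 4 samples gave p = 0.0011, the smallest it can give. Any gene without overlap gets this value, and Ibsp was picked by its p in the same samples. The exact p is thus no further evidence. Ibsp remained past the unadjusted threshold under all 32 alternative settings, with log2 fold changes from 5.35 to 9.39. The adjusted p was 0.000359 by DESeq2 with 24 samples, 0.00165 by DESeq2 with 16 samples and 0.227 by limma voom. The settings reuse the same BCP samples, so for a gene picked by its p, passing all of them is no further evidence.

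**Figure D1:**
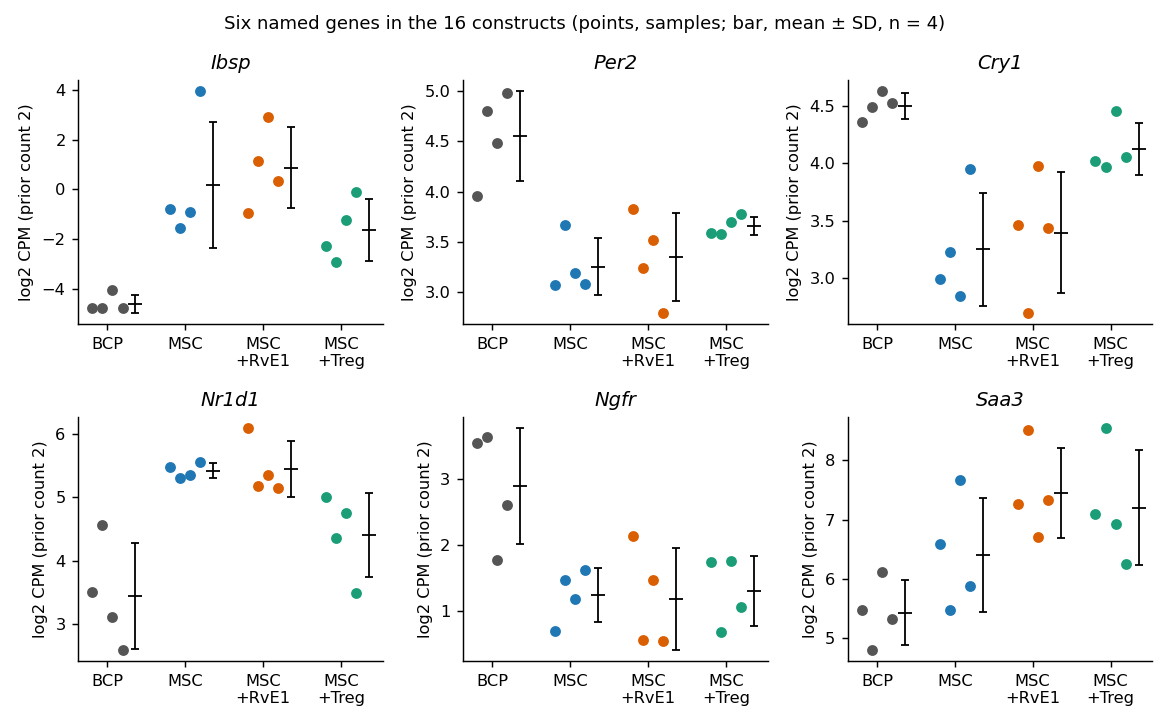
Log2 CPM (prior count 2) of Ibsp, Per2, Cry1, Nr1d1, Ngfr and Saa3 in each of the 16 samples, by group, with the mean and SD of 4 samples beside the points. The 12 MSC-bearing samples lie above the 4 BCP samples for Ibsp and below them for Per2, and 11 of 12 lie below them for Cry1 and for Ngfr.

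The Ibsp promoter is shown because its transcript was near absent from bare ceramic. The RefSeq sequence on GRCm38.p6 runs from 250 bases before to 50 after the start, chr5:104299037-104299336 on the plus strand. Capitals mark the only match to CCAAT on either strand, here in its reverse form, a pentamer that 37.41% of all 32851 promoters of this length hold.
Ibsp: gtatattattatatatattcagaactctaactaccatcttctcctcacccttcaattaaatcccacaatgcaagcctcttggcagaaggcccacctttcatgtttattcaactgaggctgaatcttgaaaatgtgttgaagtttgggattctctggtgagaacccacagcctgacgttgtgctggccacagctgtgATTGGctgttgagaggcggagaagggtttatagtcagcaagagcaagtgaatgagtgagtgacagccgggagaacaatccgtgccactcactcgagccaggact

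Of the other osteoblast genes 1 passed with Ibsp. Of 19 osteoblast and mineral matrix genes tested, 12 were higher and 7 lower, 2 of the higher ones passed the unadjusted threshold, where 7.32% of all genes did, and the median log2 fold change was 0.32 beside 0.048 for all genes tested. The second gene was Bglap, which encodes osteocalcin, a vitamin K-dependent protein of mature osteoblasts. Bglap had 1 count in the 4 BCP samples together and 0, 0.0458, 0.0166 and 0.475 CPM in BCP+MSC, 32 counts of its 59 in the MSC-bearing samples lying in BCP+MSC replicate 4. No other sample held more than 5 counts. The Bglap rate was 17.2 times that of BCP (exact 95% interval 2.97 to 690.3, counting error only), and the fitted difference was 3.49 (SE 1.47, adjusted p = 0.37). It did not pass without BCP+MSC replicate 4, or BCP replicate 2. Bglap also has near-identical copies, Bglap2 and Bglap3, whose shared reads were not counted. Sp7, the osteoblast transcription factor osterix, was at 0.117, 0.0731, 0.0723 and 0 CPM in BCP and ranged from 0.0546 to 0.46 CPM with a median of 0.147 CPM in MSC-bearing samples, with 8 of 12 above the BCP range and a difference of 1.52 (SE 0.91, adjusted p = 0.43). Runx2, the earlier osteoblast factor, and Alpl, the mineralizing phosphatase, differed by -0.18 (SE 0.21) and 0.10 (SE 0.53). Spp1, which encodes osteopontin, differed by 0.59 (SE 0.40) and Phex, a phosphate-regulating protease of osteocytes, by -1.42 (SE 0.73).

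No marker of the seeded cells passed as higher in MSC-bearing constructs. Of 18 marrow stromal markers, which fibroblasts of the host also express, 6 were higher and 12 lower, with a median of -0.14. The mean log2 CPM of this list was 5.63, 5.65, 5.59 and 5.79 in BCP and from 5.33 to 6.09 with a median of 5.64 in MSC-bearing samples, so that the groups overlapped. Vcam1, an adhesion molecule of marrow stroma and inflamed vessels, was at 50.6, 52.4, 64.7 and 67.2 CPM in BCP and ranged from 31.1 to 51.6 CPM with a median of 40.3 CPM in MSC-bearing samples. Vcam1 was below the BCP range in 11 of 12, a difference of -0.52 (SE 0.19, adjusted p = 0.37). Ebf3, a transcription factor of marrow reticular cells, differed by -0.56 (SE 0.24), while Lepr, Cxcl12, Pdgfra and Thy1 lay between -0.31 and 0 and did not pass.

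Few genes of the bone morphogenetic protein (BMP) pathway and of cartilage passed. Of 22 BMP pathway genes 7 were higher and 15 lower, and 1 passed, Id2, a target of BMP receptors that blocks helix-loop-helix factors, at 0.66 (SE 0.32, adjusted p = 0.37) with 8 of 12 samples above the BCP range. Id2 did not pass without any 1 of 10 samples, each of the 4 BCP samples among them. The ligands Bmp2 and Bmp4 differed by -0.10 (SE 0.32) and 0.49 (SE 0.34). Of 21 cartilage genes 13 were higher and 8 lower, and none passed. Col11a1, a minor collagen of cartilage, had the smallest p among them and differed by -1.06 (SE 0.53, adjusted p = 0.38).

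The clearest lower gene was Per2, which encodes a repressor of the circadian clock. The clock is a loop in which the factors BMAL1 and CLOCK switch on Per and Cry genes through E-boxes, the PER and CRY proteins then switch BMAL1 and CLOCK off, and REV-ERB alpha, encoded by Nr1d1, represses Bmal1 and several other clock genes. Per2 (ENSMUSG00000055866.9, chromosome 1, 91415982 to 91459324) was at 15.5, 27.8, 22.4 and 31.4 CPM in BCP and ranged from 6.90 to 14.2 CPM with a median of 11.7 CPM in MSC-bearing samples, with no overlap. The difference was -1.16 (SE 0.20, adjusted p = 0.11), and in the single groups it was -1.33 with MSC alone, -1.21 with MSC and RvE1 and -0.94 with MSC and Treg. The exact permutation p of 0.0011 follows from the lack of overlap. It is no further evidence, since Per2 was picked by its p in the same samples. Per2 was past the unadjusted threshold under all 32 alternative settings, with log2 fold changes between -1.31 and -0.95.

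Cry1, the partner of PER2 in the repressor complex, was lower as well. Cry1 (ENSMUSG00000020038.10, chromosome 10, 85131700 to 85185064) was at 20.5, 22.5, 24.8 and 23.0 CPM in BCP and ranged from 6.44 to 22.0 CPM with a median of 13.2 CPM in MSC-bearing samples, of which 11 lay below the BCP range. The difference of Cry1 was -0.87 (SE 0.19, adjusted p = 0.2), and in the single groups it was -1.19 with MSC alone, -1.04 with MSC and RvE1 and -0.37 with MSC and Treg, unequal between them at an unadjusted p under 0.05. Nr1d1 was on the other side of BCP. Nr1d1 (ENSMUSG00000020889.11, chromosome 11, 98767932 to 98775333) was at 11.4, 23.6, 8.60 and 5.98 CPM in BCP and ranged from 11.3 to 67.9 CPM with a median of 37.7 CPM in MSC-bearing samples, with 10 of 12 above the BCP range and a difference of 1.5 (SE 0.38, adjusted p = 0.24). Nr1d1 overlaps Thra on the opposite strand, and the counting took no account of strand.

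Of the 15 clock genes tested, 2 were higher and 2 lower at an unadjusted p under 0.05, where 7.32% and 5.97% of all genes were, and the list median was 0.014. The fourth was Nr1d2, which encodes REV-ERB beta, at 0.62 (SE 0.22). Arntl, the gene of BMAL1, differed by -0.35 (SE 0.21), Clock by -0.27 (SE 0.17) and Dbp, an output gene driven by E-boxes, by 0.60 (SE 0.39), and none of them passed. Per1 and Per3 differed by -0.35 (SE 0.32) and 0.014 (SE 0.25). The hour at which each mouse was sampled is not given in the sources used here, and its part in these values was not tested.

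The Cry1 promoter is shown for its E-box, the element by which the clock reads its own genes. The RefSeq window on GRCm38.p6, chr10:85185005-85185304 on the minus strand, holds 1 match to CACGTG, which reads the same on both strands and is found in 7.15% of promoters of this length. Capitals mark the E-box.
Cry1: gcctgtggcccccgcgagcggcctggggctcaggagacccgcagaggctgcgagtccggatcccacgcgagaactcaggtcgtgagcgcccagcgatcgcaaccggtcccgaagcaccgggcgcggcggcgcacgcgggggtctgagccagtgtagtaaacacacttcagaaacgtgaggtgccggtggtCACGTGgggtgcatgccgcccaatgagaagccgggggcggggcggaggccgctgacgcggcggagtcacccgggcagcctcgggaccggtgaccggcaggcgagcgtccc

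Immediate early genes, which are switched on within minutes by stretch, injury or growth factors, were lower on average in MSC-bearing constructs, and 2 BCP samples held the high values. Of 15 genes, 14 were lower, 9 of them at an unadjusted p under 0.05 where 5.97% of all genes were, and the median log2 fold change was -0.78. The mean log2 CPM of the list was 5.53, 5.97, 8.15 and 7.13 in BCP replicates 1 to 4 and ranged from 5.62 to 6.94 with a median of 5.82 in MSC-bearing samples. BCP replicates 3 and 4 were thus high, replicate 2 lay within and replicate 1 just below the range of the MSC-bearing samples, and the highest MSC-bearing sample was BCP+MSC+RvE1 replicate 3. Without these 3 samples the list median was 0.38. They were picked by this same score, and 2 of them are BCP samples. A shift upward without them is thus partly built in, here and for the genes below that follow the score.

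Fosb, a subunit of the AP-1 transcription factor, showed the same split. Fosb (ENSMUSG00000003545.3, chromosome 7, 19302696 to 19310051) was at 6.01, 8.99, 473 and 259 CPM in BCP and ranged from 1.32 to 149 CPM with a median of 6.21 CPM in MSC-bearing samples. Its difference was -3.66 (SE 0.84, adjusted p = 0.21), and 0.35 (not passing) without the 3 samples. Nr4a1, an orphan nuclear receptor, was at 27.8, 40.5, 385 and 213 CPM in BCP and ranged from 24.7 to 190.5 CPM with a median of 56.2 CPM in MSC-bearing samples, a difference of -1.52 (SE 0.45, adjusted p = 0.37) that was -0.69 (not passing) without BCP replicate 3 and 0.57 (not passing) without the 3 samples. Its relatives Nr4a2 and Nr4a3 were among the 10 lower genes of smallest p, at -2.0 (SE 0.39, adjusted p = 0.2) and -1.30 (SE 0.30, adjusted p = 0.2). Without the 3 samples they were at -0.23 (not passing) and -0.077 (not passing). Egr3, a zinc finger factor, was at 3.97, 3.00, 9.43 and 24.1 CPM in BCP and ranged from 0.181 to 7.81 CPM with a median of 0.876 CPM in MSC-bearing samples. Egr3 differed by -2.51 (SE 0.70, adjusted p = 0.33), kept its sign without the 3 samples at -1.36 (not passing), and lay below the BCP range in 8 of 12.

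**Figure D2:**
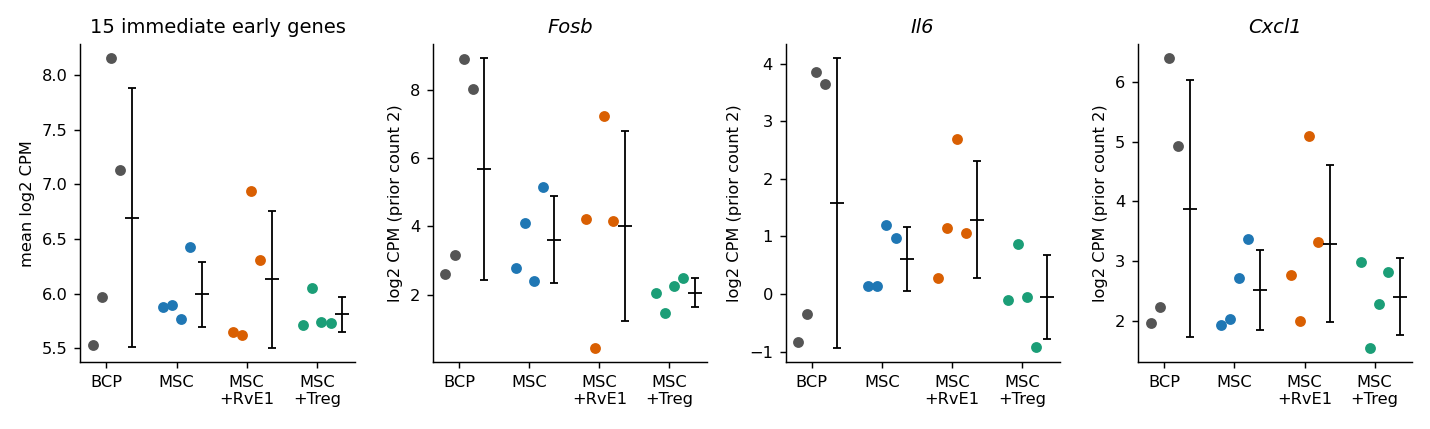
Mean log2 CPM of the 15 immediate early genes, and log2 CPM (prior count 2) of Fosb, Il6 and Cxcl1, in each sample by group, with the mean and SD of 4 samples. BCP replicates 3 and 4 stand above the other 2 BCP samples in each panel, and the MSC-bearing samples overlap the BCP samples.

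The promoters of Fosb and Nr4a1 are shown because both genes were highest in BCP replicates 3 and 4. The RefSeq windows on GRCm38.p6 are chr7:19309996-19310295 on the minus strand and chr15:101266596-101266895 on the plus strand. Capitals mark matches on either strand to TGACG, the core of the cyclic AMP response element, of which Fosb has 1 and Nr4a1 has 4. At least 1 match is found in 20.81% of promoters of this length.
Fosb: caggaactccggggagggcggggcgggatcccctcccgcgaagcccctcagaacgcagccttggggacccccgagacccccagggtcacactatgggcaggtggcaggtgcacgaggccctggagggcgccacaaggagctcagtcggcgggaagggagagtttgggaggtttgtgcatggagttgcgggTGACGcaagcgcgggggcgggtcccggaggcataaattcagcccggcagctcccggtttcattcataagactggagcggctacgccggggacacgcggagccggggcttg
Nr4a1: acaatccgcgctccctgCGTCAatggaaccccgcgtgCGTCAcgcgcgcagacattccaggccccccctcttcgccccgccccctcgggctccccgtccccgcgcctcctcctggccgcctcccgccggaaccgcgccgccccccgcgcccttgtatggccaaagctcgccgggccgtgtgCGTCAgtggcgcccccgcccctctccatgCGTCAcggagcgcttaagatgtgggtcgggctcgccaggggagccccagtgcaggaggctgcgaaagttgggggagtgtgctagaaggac

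The cytokines Il6 and Cxcl1 were high in the same BCP samples. Of 30 cytokine and chemokine genes, 13 were higher and 17 lower, 4 of the lower ones passed the unadjusted threshold, where 5.97% of all genes did, and the median was -0.03. Il6, the interleukin that drives the acute phase and fibroblast activation, was at 0.525, 0.749, 14.4 and 12.4 CPM in BCP and ranged from 0.493 to 6.41 CPM with a median of 1.48 CPM in MSC-bearing samples. The difference of Il6 was -2.05 (SE 0.59, adjusted p = 0.35), the groups overlapped with an exact permutation p of 0.258, and without the 3 samples it was 1.15 (not passing). Cxcl1, a neutrophil attractant, was at 3.85, 4.68, 83.9 and 30.4 CPM in BCP and differed by -1.98 (SE 0.60, adjusted p = 0.37), or 0.54 (not passing) without the 3 samples and -0.73 (not passing) without BCP replicate 3. Il1a, an alarmin, did not follow this split. Il1a was at 8.11, 6.21, 7.98 and 9.25 CPM in BCP and ranged from 1.56 to 7.94 CPM with a median of 4.38 CPM in MSC-bearing samples, 10 of them below the BCP range, a difference of -0.83 (SE 0.36, adjusted p = 0.37) that did not pass without BCP replicate 1, 3 or 4. Csf2 was the fourth, at -1.19 (SE 0.57). Tnf and Ccl2 differed by 0.083 (SE 0.29) and -0.014 (SE 0.36).

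Hyaluronan and early matrix remodelling genes shared this pattern in part. Has1, a hyaluronan synthase, was at 3.67, 3.78, 46.2 and 41.8 CPM in BCP and differed by -2.36 (SE 0.53, adjusted p = 0.2), and by -0.024 (not passing) without the 3 samples. Has2, the main synthase of connective tissue, was at 15.4, 12.1, 21.5 and 69.4 CPM in BCP and ranged from 5.12 to 19.2 CPM with a median of 7.52 CPM in MSC-bearing samples. It differed by -1.56 (SE 0.45, adjusted p = 0.35), with 9 of 12 below the BCP range, and by -0.71 (not passing) without BCP replicate 4. Has2os overlaps it on the opposite strand. Adamts1, an aggrecanase induced by injury, was at 42.0, 40.9, 102 and 107 CPM in BCP and differed by -1.01 (SE 0.26, adjusted p = 0.22), or -0.27 (not passing) without the 3 samples. Of 19 protease and inhibitor genes 8 were higher and 11 lower, with a median of -0.028. The other one that passed was Mmp19, at -0.94 (SE 0.39).

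Collagen and other fibrous matrix genes were lower without exception in the mean of the 3 groups, yet none passed the test. All 21 were lower, 16 of them in each of the 3 groups, and the median log2 fold change was -0.46, or -0.061 with the share of short genes as a covariate. By group the median was -0.17, -0.65 and -0.58 in BCP+MSC, BCP+MSC+RvE1 and BCP+MSC+Treg. Col1a1, the main chain of type I collagen, was at 6827, 8662, 9313 and 13224 CPM in BCP and ranged from 2404 to 10559 CPM with a median of 5460.0 CPM in MSC-bearing samples. Col1a1 lay below the BCP range in 9 of 12 and differed by -0.69 (SE 0.34, adjusted p = 0.38), with an exact permutation p of 0.0407. Col3a1, Postn and Fn1 differed by -0.77 (SE 0.41), -0.46 (SE 0.30) and -0.20 (SE 0.30).

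Of 17 genes of myofibroblasts and transforming growth factor beta (TGF-beta) signalling, 14 were lower and 4 of these passed, where 5.97% of all genes did, with a median of -0.39. Cdh11, the cadherin that joins fibroblasts, was at 72.1, 61.6, 73.5 and 91.1 CPM in BCP and ranged from 23.2 to 77.8 CPM with a median of 37.4 CPM in MSC-bearing samples, a difference of -0.76 (SE 0.31, adjusted p = 0.37) that was -0.65 (not passing) without BCP replicate 4. Tgfbr1, a TGF-beta receptor, differed by -0.53 (SE 0.23). Ccn1, a matrix protein induced by stretch, was at 23.3, 34.9, 447 and 198 CPM in BCP and changed sign without the 3 samples, from -1.19 (SE 0.48, adjusted p = 0.37) to 1.23 (passing), and was -0.14 (not passing) without BCP replicate 3. Inhba, the activin A subunit, was at 1.52, 4.22, 2.22 and 34.3 CPM in BCP and differed by -1.82 (SE 0.76, adjusted p = 0.37), or 0.15 (not passing) without BCP replicate 4. Acta2, the actin of contracting myofibroblasts, differed by -0.14 (SE 0.26).

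Tnfsf11, which encodes RANKL, the cytokine that turns macrophages into osteoclasts, was lower. Tnfsf11 was at 18.6, 2.06, 4.59 and 8.06 CPM in BCP and ranged from 1.87 to 5.71 CPM with a median of 3.14 CPM in MSC-bearing samples, a difference of -1.33 (SE 0.42, adjusted p = 0.37) with an exact permutation p of 0.0692. It rested on BCP replicate 1, without which it was -0.55 (not passing). Nfatc1, the osteoclast factor that RANKL induces, differed by -0.52 (SE 0.21), and Tnfrsf11b, which encodes the RANKL decoy osteoprotegerin, by -0.67 (SE 0.37). Of the 16 osteoclast and giant cell genes 10 were lower, all 10 in each of the 3 groups, and the median was -0.25. The effector genes Acp5 and Ctsk differed by 0.10 (SE 0.25) and -0.13 (SE 0.25).

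Ngfr, the low-affinity nerve growth factor receptor carried by Schwann cells, injured nerve and some stromal cells, was lower in every MSC group. Ngfr (ENSMUSG00000000120.6, chromosome 11, 95568818 to 95587735) was at 11.7, 12.5, 3.39 and 6.11 CPM in BCP and ranged from 1.42 to 4.39 CPM with a median of 2.48 CPM in MSC-bearing samples, 11 of them below the BCP range. The difference of Ngfr was -1.75 (SE 0.41, adjusted p = 0.2), with -1.80 with MSC alone, -1.74 with MSC and RvE1 and -1.70 with MSC and Treg, and it passed the unadjusted threshold under all 32 alternative settings. Cdh19, a Schwann cell cadherin, differed by -1.02 (SE 0.38). The myelin gene Mbp differed by -0.11 (SE 0.19), and the median of the 10 nerve genes was -0.12.

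Of the 31 lists, the one with the most higher genes that passed held subunits of the mitochondrial respiratory chain. All 46 nuclear genes of the list were higher, 45 of them in each of the 3 groups, and 34 passed the unadjusted threshold where 7.32% of all genes were higher at that level. Their median log2 fold change was 0.89, and 0.56, 1.04 and 1.12 in BCP+MSC, BCP+MSC+RvE1 and BCP+MSC+Treg. Ndufs4, a subunit of complex I, was at 38.4, 55.0, 61.6 and 27.9 CPM in BCP and ranged from 31.6 to 162 CPM with a median of 95.7 CPM in MSC-bearing samples, 10 of them above the BCP range, a difference of 1.03 (SE 0.35, adjusted p = 0.37). Ndufv2, also of complex I, differed by 1.28 (SE 0.44, adjusted p = 0.37), and Cox7b of complex IV by 0.90 (SE 0.32, adjusted p = 0.37). Ndufv3, a further complex I subunit outside the list, was among the 10 higher genes of smallest p, at 1.03 (SE 0.31, adjusted p = 0.36). For the list as a whole, the mean log2 CPM was 6.16, 6.57, 6.86 and 5.65 in BCP replicates 1 to 4 and ranged from 5.70 to 8.20 with a median of 7.20 in MSC-bearing samples, with 10 of 12 above the BCP range. The other 2 were BCP+MSC+Treg replicate 4 and BCP+MSC replicate 2.

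Gene length moved with this difference. Over protein-coding genes at 1 CPM or more on average, the median log2 fold change was 0.47 in the eighth with the shortest exons (255 to 1829 bases) and -0.22 in the eighth with the longest, and it was lower in each successive bin. The respiratory chain genes are short, with a median of 1635 bases of exon, and 24 of the 46 belong to the shortest eighth. Genes with under 1000 bases of exon took 2.60% to 4.34% of the counts in BCP and 2.42% to 7.42% in MSC-bearing samples. Any tested gene of that length is itself part of this share. For such genes, nuclear or mitochondrial, a smaller difference with the share as a covariate is therefore partly built in. With this share as a covariate the respiratory chain median was 0.12, with length offsets 0.61, and with a covariate for muscle genes 0.60. Of the genes of the mitochondrial genome 10 of 13 were higher and 4 passed, mt-Co2, mt-Co3, mt-Atp6 and mt-Nd6. The largest difference was that of mt-Co2 at 2.13 (SE 0.75, adjusted p = 0.37), while mt-Nd5, which overlaps mt-Nd6 on the opposite strand, differed by -0.27 (SE 0.34). With the share of short genes as a covariate mt-Co2, mt-Nd6 and mt-Atp6 were at 0.39 (not passing), 0.18 (not passing) and 0.48 (not passing). Neither mt-Nd6 nor mt-Atp6, at 0.98 (SE 0.39, adjusted p = 0.37) and 1.29 (SE 0.52, adjusted p = 0.37), passed without BCP replicate 1 or BCP replicate 4. Of the 86 genes chosen for naming 28 passed as higher and 35 as lower, and with that covariate 8 and 23 of them did, with length offsets 20 and 33. Near-identical nuclear copies make the counts of genes of the mitochondrial genome uncertain. In BCP mt-Co2 was at 0.991 to 4.51 CPM and mt-Atp6 at 0.315 to 1.73 CPM, against 272 to 830 CPM for mt-Nd6. The differences of mt-Co2 and mt-Atp6 thus concern few counted reads and cannot be read as changes of these transcripts.

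**Figure D3:**
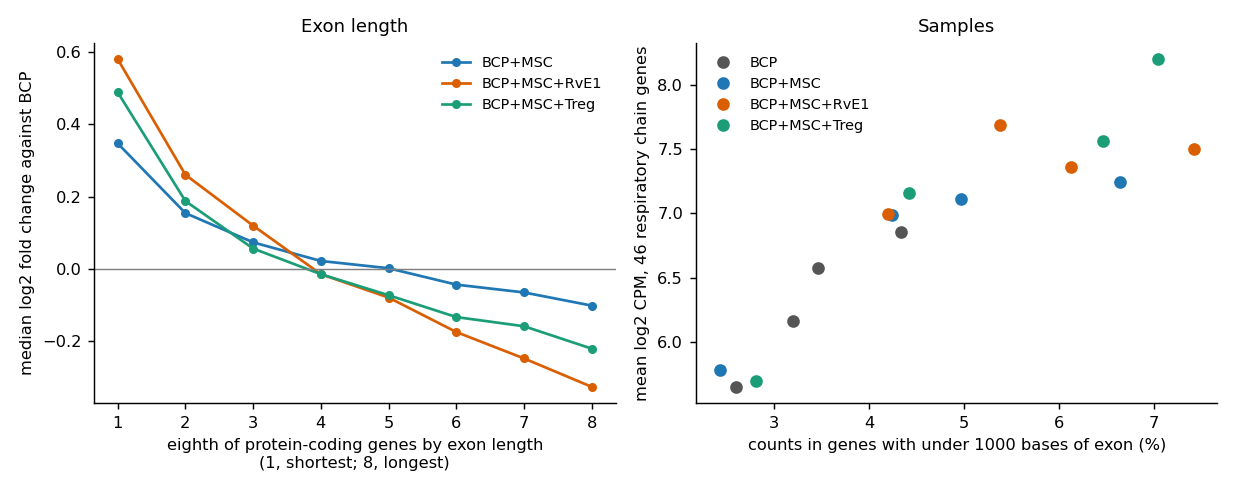
Left, median log2 fold change against BCP in each eighth of protein-coding genes by exon length, for the 3 MSC groups; right, mean log2 CPM of the 46 nuclear respiratory chain genes against the percentage of counts in genes with under 1000 bases of exon, 1 point per sample. In each group the median falls from the shortest to the longest genes, and the 3 samples with the smallest shares of short genes, BCP+MSC replicate 2, BCP replicate 4 and BCP+MSC+Treg replicate 4, have the 3 lowest respiratory chain means. Any gene of the list with under 1000 bases of exon counts in both axes of the right panel.

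Muscle and fat genes were higher on average, with 1 of each list passing. All 32 skeletal muscle genes were higher, 31 in each of the 3 groups, with a median of 1.06, and 1 passed, Tnnc1, a troponin of slow fibres, at 2.58 (SE 1.16, adjusted p = 0.37). Tnnc1 overlaps Nisch on the opposite strand and did not pass without BCP+MSC+RvE1 replicate 2, BCP+MSC+Treg replicate 2, BCP+MSC replicate 1 or 3, or BCP replicate 1, 2 or 4. The list median was 0.55 without the 4 samples under 20000000 counts, and 7 of 12 MSC-bearing samples were above the BCP range. Of 20 adipocyte genes 16 were higher, with a median of 0.67 and 1 gene passing. This was Ucp1, the uncoupling protein of brown fat, which reached 225 CPM in BCP+MSC+Treg replicate 1 and was at 0.0583, 0, 0.0161 and 0 CPM in BCP. Of its 17318 counts in MSC-bearing samples 17159 lay in that sample. The Ucp1 rate was 1682 times that of BCP (exact 95% interval 575 to 8156, counting error only). Its fitted difference was 6.61 (SE 2.87, adjusted p = 0.37), and 3.65 (not passing) without that sample. Leave-one-out fits in which it did not pass were those without BCP+MSC+RvE1 replicate 1, BCP+MSC+Treg replicate 1, or BCP replicate 2, 3 or 4. Adipoq and Fabp4, markers of fat cells, differed by 0.64 (SE 0.91) and 1.33 (SE 0.81). BCP replicate 4 was the lowest of the 16 samples in fat genes, with a mean log2 CPM of 2.58 against 6.52 or more in the other BCP samples. The part of fat tissue in the respiratory chain difference was not tested.

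Of 13 genes that glucocorticoids raise, 3 passed as higher, where 7.32% of all genes did. Mt2 and Mt1, metallothioneins that bind zinc and copper, differed by 1.96 (SE 0.76, adjusted p = 0.37) and 1.46 (SE 0.64, adjusted p = 0.37). Mt2 was at 5.66, 13.1, 15.1 and 17.5 CPM in BCP and ranged from 9.68 to 171 CPM with a median of 30.9 CPM in MSC-bearing samples, 9 of them above the BCP range. Pdk4, which spares glucose by blocking pyruvate dehydrogenase, was at 18.8, 43.1, 32.5 and 9.25 CPM in BCP and differed by 1.90 (SE 0.75, adjusted p = 0.37). Mt2 did not pass without BCP replicate 1, nor Pdk4 without BCP replicate 1 or 4. Mt1 did not pass without BCP+MSC+RvE1 replicate 2, BCP+MSC+Treg replicate 2, BCP+MSC replicate 3, or BCP replicate 1, 2 or 4. With the share of short genes as a covariate Mt2, Mt1 and Pdk4 were at 0.61 (not passing), 0.20 (not passing) and 1.14 (not passing), and with length offsets at 1.07 (not passing), 0.87 (not passing) and 1.91 (passing). The remaining 10 of the 13 genes of this list did not pass, Fkbp5 and Tsc22d3 being at -0.13 (SE 0.24) and 0.33 (SE 0.27), and the list median was 0.33. Of 24 genes of glycolysis and hypoxia 19 were higher, with a median of 0.28, and 2 passed. Bnip3, which marks mitochondria for removal under low oxygen, was at 32.8, 70.2, 52.0 and 56.0 CPM in BCP and ranged from 49.9 to 142 CPM with a median of 90.1 CPM in MSC-bearing samples, a difference of 0.77 (SE 0.24, adjusted p = 0.37). Ankrd37, another target of hypoxia-inducible factor, differed by 1.35 (SE 0.49), while Vegfa and Hif1a differed by -0.30 (SE 0.22) and -0.30 (SE 0.22).

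Few immune cell genes passed. Of 28 monocyte and macrophage genes 14 were higher and 14 lower, with a median of 0.046, and 2 passed, both lower. Mertk, the receptor by which macrophages take up dying cells, was at 78.7, 53.0, 63.0 and 91.3 CPM in BCP and ranged from 25.1 to 75.6 CPM with a median of 36.8 CPM in MSC-bearing samples, 10 of them below the BCP range, a difference of -0.81 (SE 0.29, adjusted p = 0.37) that was -0.67 (not passing) without BCP replicate 4. Lyz2, macrophage lysozyme, differed by -0.61 (SE 0.29). Cd163, a haemoglobin scavenger of macrophages, differed by 0.78 (SE 0.48, adjusted p = 0.44), with 6 of 12 above and 2 below the BCP range. Of the 17 neutrophil, 10 mast cell, 20 interferon response, 15 antigen presentation, 18 skin and hair, 7 red blood cell, 14 myogenic regulator and 23 cell cycle genes none passed, with list medians from -0.22 to 0.40. The gene of smallest p was Il1r2, a decoy receptor of neutrophils, at 0.38 (SE 0.28, adjusted p = 0.52) among neutrophil genes and Birc5, survivin, at 0.82 (SE 0.41, adjusted p = 0.38) among cell cycle genes. In other lists these were Gata2 at 0.51 (SE 0.29, adjusted p = 0.42), H2-DMa at 0.45 (SE 0.36, adjusted p = 0.56), Krt25 at -1.23 (SE 1.01, adjusted p = 0.57), Hba-a2 at 1.97 (SE 1.12, adjusted p = 0.42) and Mymk at -1.49 (SE 0.82, adjusted p = 0.41).

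Among 25 T and NK cell genes 18 were higher and 7 lower, with a median of 0.28. Cd3d, a chain of the T cell receptor complex, differed by 1.12 (SE 0.51, adjusted p = 0.37) and Klrd1, an NK cell receptor, by 0.80 (SE 0.34, adjusted p = 0.37). With the share of short genes as a covariate they were at 0.034 (not passing) and 0.51 (not passing). Klrd1 did not pass without BCP replicate 2 or 4, Cd4 without BCP replicate 1 or 2, and Cd3d without BCP+MSC+RvE1 replicate 4, BCP+MSC+Treg replicate 1 or 2, BCP+MSC replicate 1 or 3, or BCP replicate 1, 2 or 4. Klrd1 was at 2.74, 2.08, 3.12 and 1.01 CPM in BCP and ranged from 2.52 to 5.53 CPM with a median of 3.64 CPM in MSC-bearing samples, 10 of them above the BCP range. Cd4, the helper T cell coreceptor that macrophages also carry, was lower, at -0.58 (SE 0.24, adjusted p = 0.37), and Cd3e, a second chain of the complex, was at 0.21 (SE 0.41). The chemokine receptors Ccr4 and Ccr6 differed by -0.79 (SE 0.49, adjusted p = 0.44) and -1.19 (SE 0.76, adjusted p = 0.46). Foxp3, which defines Treg, was at 1.28, 0.914, 1.27 and 2.14 CPM in BCP and ranged from 0.356 to 1.48 CPM with a median of 0.79 CPM in MSC-bearing samples, a difference of -0.81 (SE 0.40, adjusted p = 0.38) that did not pass. Foxp3 overlaps Flicr on its own strand and Ccdc22 and Gm36995 on the other, and 5 of the 14 Treg genes were higher and 9 lower, with a median of -0.31.

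Ighg2c, the constant region of an antibody class, was the 1 gene of 23 B and plasma cell genes that passed. Ighg2c was at 12.9, 6.40, 13.5 and 11.9 CPM in BCP and ranged from 0.74 to 7.22 CPM with a median of 3.58 CPM in MSC-bearing samples, 11 of them below the BCP range, a difference of -1.62 (SE 0.53, adjusted p = 0.37). Antibody constant genes are near-identical to one another, so reads shared between them were not counted. Ighg1 and Igkc differed by -0.68 (SE 1.15) and 1.20 (SE 0.98), and the list median was -0.03. Of 20 endothelial genes 11 were higher and 9 lower, with a median of 0.026. Egfl7, a matrix protein of growing vessels that hosts Mir126a, was at 45.0, 49.1, 63.9 and 49.3 CPM in BCP and ranged from 52.3 to 119 CPM with a median of 78.6 CPM in MSC-bearing samples, a difference of 0.65 (SE 0.23, adjusted p = 0.37), and Emcn, a sialomucin of capillaries, differed by 0.48 (SE 0.23). Pecam1 and Cdh5, which every vessel expresses, differed by 0.016 (SE 0.16) and -0.072 (SE 0.21).

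**Figure D4:**
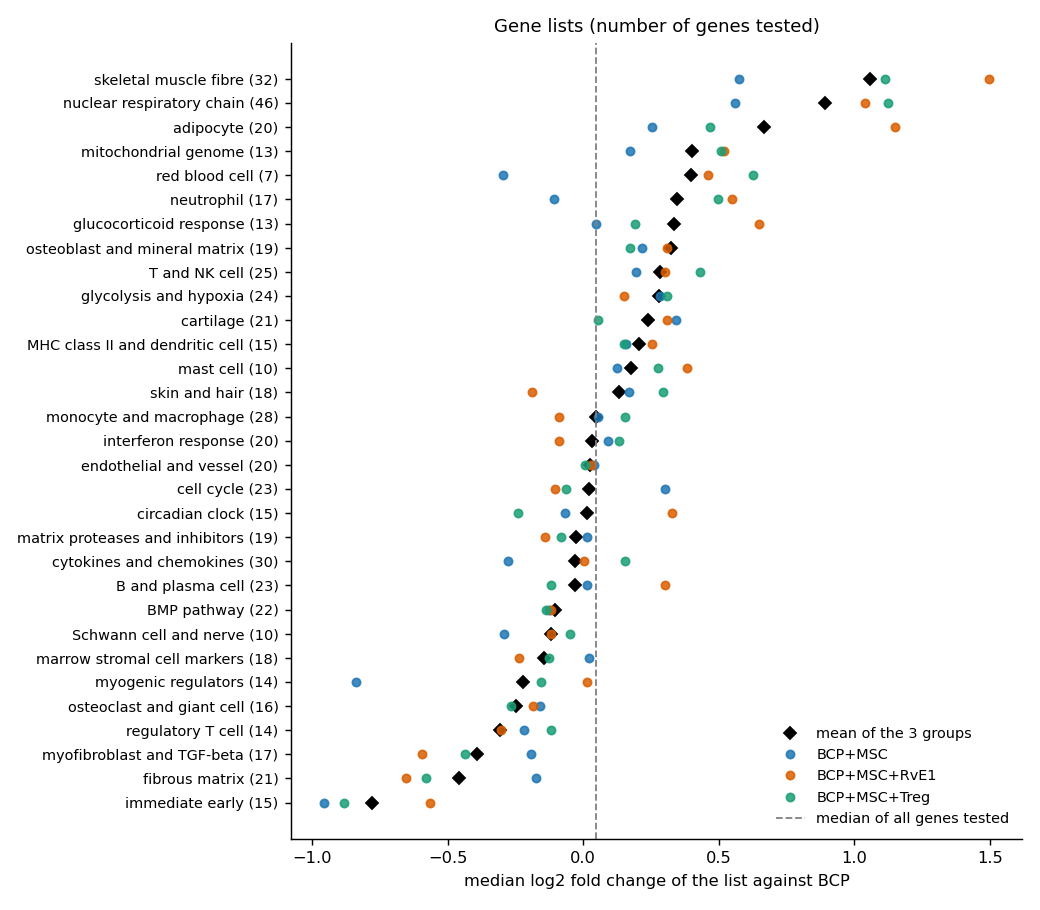
Median log2 fold change against BCP of each of the 31 gene lists, for the mean of the 3 groups (diamonds) and for each group (circles), with the median of all genes tested as a dashed line. Skeletal muscle (1.06) and nuclear respiratory chain genes (0.89) lie furthest above that line, and immediate early (-0.78) and fibrous matrix genes (-0.46) furthest below.

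Saa3, an acute-phase protein made by macrophages and fibroblasts, came after Ibsp and Nr1d1 by p among the 10 higher genes named by rule. Saa3 was at 44.2, 27.7, 69.6 and 40.2 CPM in BCP and ranged from 44.4 to 373 CPM with a median of 129 CPM in MSC-bearing samples, 10 of them above the BCP range, a difference of 1.74 (SE 0.47, adjusted p = 0.31). It was at 0.81 (passing) with the share of short genes as a covariate. Trib3, a pseudokinase of the amino acid stress response, was at 2.86, 7.18, 7.11 and 6.74 CPM in BCP and ranged from 5.52 to 40.5 CPM with a median of 13.3 CPM, a difference of 1.47 (SE 0.46, adjusted p = 0.37). Apol9a, an interferon-inducible apolipoprotein whose near-identical copies leave its count uncertain, differed by 1.08 (SE 0.35, adjusted p = 0.37), with 11 of 12 above the BCP range. Rapgef4, which encodes EPAC2, a cyclic AMP sensor, was at 1.28, 0.804, 1.03 and 0.0629 CPM in BCP and ranged from 1.42 to 2.71 CPM with a median of 1.91 CPM without overlap, a difference of 1.28 (SE 0.42, adjusted p = 0.37). Rapgef4 passed under 32 of the 32 alternative settings. The lowest BCP value of Rapgef4, in replicate 4, was 1 count, and several antisense genes overlap it. Syp, a synaptic vesicle protein, differed by 1.20 (SE 0.38, adjusted p = 0.37), Arhgdig by 1.86 (SE 0.59, adjusted p = 0.37) and Ptges3l by 1.31 (SE 0.43, adjusted p = 0.37). All 3 overlap other genes, so that reads could not always be assigned.

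**Figure D5:**
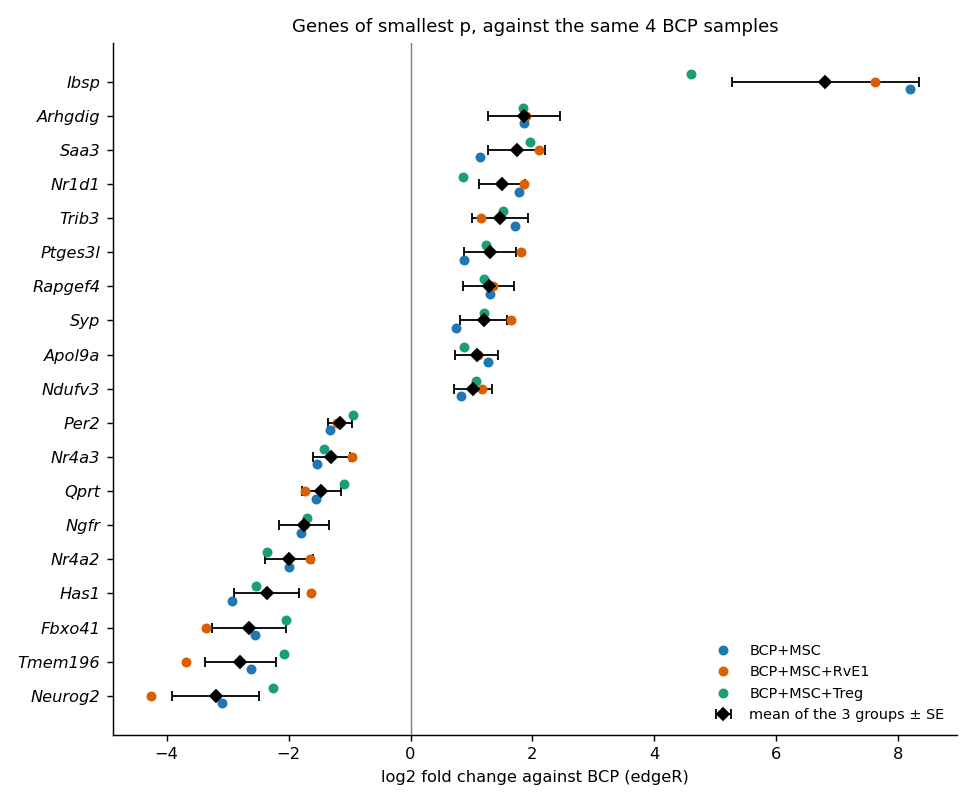
Log2 fold change against BCP of the 10 higher and 9 of the 10 lower genes of smallest p, as the mean of the 3 groups with its SE (diamonds) and in each MSC group (circles). Ibsp lies furthest right and Neurog2 furthest left, and every circle lies on the same side of 0 as its diamond, as the selection required.

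A further set of lower genes had its extremes in the same samples. Tmem196, a membrane protein, was at 4.72, 2.14, 0.683 and 12.1 CPM in BCP and ranged from 0.12 to 3.37 CPM with a median of 0.513 CPM in MSC-bearing samples. Neurog2, a neuronal helix-loop-helix factor, was at 5.31, 3.25, 0.691 and 15.1 CPM in BCP and ranged from 0.12 to 3.95 CPM with a median of 0.464 CPM. Fbxo41, a neuronal F-box protein, was at 10.6, 5.65, 1.25 and 25.8 CPM in BCP and ranged from 0.782 to 6.82 CPM with a median of 1.24 CPM. For each of the 3 the highest BCP sample was replicate 4 and the lowest replicate 3, the highest MSC-bearing sample was BCP+MSC+Treg replicate 4 and the lowest BCP+MSC+RvE1 replicate 2. Qprt, an enzyme of NAD synthesis, had the same extremes, at 14.2, 10.6, 7.27 and 23.0 CPM in BCP. BCP replicate 4, BCP+MSC+Treg replicate 4 and BCP+MSC+RvE1 replicate 2 were 3 of the 4 samples with under 20000000 counts. The share of counts in short genes was 2.60% and 2.80% in the first 2 of them, and the largest of the 16 samples, 7.42%, in the third. The differences were -2.79 (SE 0.58, adjusted p = 0.2) for Tmem196, -3.20 (SE 0.71, adjusted p = 0.2) for Neurog2, -2.65 (SE 0.61, adjusted p = 0.2) for Fbxo41 and -1.46 (SE 0.32, adjusted p = 0.2) for Qprt. With the share of short genes as a covariate, Tmem196, Neurog2 and Fbxo41 were at -1.74 (passing), -1.79 (passing) and -1.72 (passing). Without the 4 samples they were at -1.31 (passing), -1.97 (passing) and -1.30 (not passing).

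The 13 genes named for non-overlapping values differed by log2 fold changes from -1.21 to 0.74, and 11 of them were lower. Lipa, the lysosomal lipase that frees cholesterol in macrophages, was at 746, 639, 634 and 721 CPM in BCP and ranged from 176 to 577 CPM with a median of 432 CPM in MSC-bearing samples, a difference of -0.79 (SE 0.30, adjusted p = 0.37). Col28a1, a collagen of Schwann cell basement membranes, was at 9.86, 7.89, 7.32 and 11.7 CPM in BCP and ranged from 1.42 to 5.59 CPM with a median of 4.39 CPM, a difference of -1.21 (SE 0.33, adjusted p = 0.29). Nrarp, a feedback inhibitor and target of Notch, was at 1.98, 2.27, 2.12 and 1.89 CPM in BCP and ranged from 0.602 to 1.73 CPM with a median of 1.02 CPM, a difference of -0.96 (SE 0.35, adjusted p = 0.37). Vps37b, a subunit of the endosomal ESCRT-I complex, and Rab11fip1, an adaptor of recycling endosomes, differed by -0.70 (SE 0.19, adjusted p = 0.29) and -0.73 (SE 0.22, adjusted p = 0.36). Lacc1, a macrophage enzyme, was at 47.9, 48.0, 48.2 and 53.2 CPM in BCP and ranged from 8.85 to 46.5 CPM with a median of 30.3 CPM, a difference of -0.70 (SE 0.33, adjusted p = 0.37) that did not pass in 9 of the 16 fits that left out 1 sample, among them those without each BCP replicate. Smg8, Creg2, Snx12, Tdp1 and Anks1 were lower by log2 fold changes between -0.56 and -0.29, while F2rl3, which encodes the thrombin receptor PAR4, and Saal1 were higher, at 0.74 (SE 0.37, adjusted p = 0.38) and 0.28 (SE 0.19, adjusted p = 0.48). Since the lack of overlap chose these 13 genes, their exact permutation p of 0.0011 is no further evidence.

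The remaining genes were named because the study compared them with BCP. Fgf4, a growth factor of the embryo, had 1 count in the 4 BCP samples and 44 in the 12 MSC-bearing samples, 12.8 times the rate with an exact 95% interval of 2.18 to 518 for counting error. Its fitted difference was 3.37 (SE 1.16, adjusted p = 0.37), and no MSC-bearing sample exceeded 0.301 CPM. Matn3, a cartilage matrix protein, was at 0.641, 0.365, 0.546 and 0.126 CPM in BCP and differed by -1.14 (SE 0.61, adjusted p = 0.4). Ccl4, a chemokine of macrophages and T cells, differed by 0.90 (SE 0.55, adjusted p = 0.44), with 0.17 with MSC alone, 1.23 with MSC and RvE1 and 1.29 with MSC and Treg. Cd300c, a myeloid receptor, was at 0.7, 0.566, 0.964 and 0.504 CPM in BCP and differed by 0.91 (SE 0.45, adjusted p = 0.38), which did not pass. Of the 12 MSC-bearing samples 9 were above the BCP range, and the exact permutation p was 0.00879. Cd300c passed under 8 of the 32 alternative settings. In the 8 toxin-treated samples it ranged from 0 to 0.498 CPM, below the BCP range in all 8.

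No gene passed, after adjustment, a test for unequal differences to BCP among the 3 MSC groups. In this edgeR test 0 of 30564 genes had an adjusted p under 0.05 and 738 (2.41%) an unadjusted p under 0.05. Of the named genes, 4 were among the 738. Besides Cry1 they were Ucp1, at 3.68 with MSC alone, 4.41 with MSC and RvE1 and 11.74 with MSC and Treg, Ibsp, at 8.19 with MSC alone, 7.63 with MSC and RvE1 and 4.60 with MSC and Treg, and Fosb, at -3.53 with MSC alone, -2.0 with MSC and RvE1 and -5.46 with MSC and Treg. For Ibsp the smallest values lay in BCP+MSC+Treg, whose highest sample was at 0.904 CPM, while the means of the other groups rested on BCP+MSC replicate 4 and BCP+MSC+RvE1 replicate 3.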

How the data were processed

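RNA of whole constructs from 24 mice, 4 in each of 6 groups, was sequenced from stranded, paired-end libraries. The authors aligned reads with HISAT2 2.0.5 and counted read pairs per gene with featureCounts 1.5.2 on GENCODE M13 (GRCm38), and per the file header no strand, multi-mapping or overlap option was set. The deposited values are raw counts, and no sample column was left unused. Groups came from the sample labels, and replicates are single mice.

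Symbols came from GENCODE M21, which matched 50462 of 51138 identifiers. Counts were fitted with edgeR 4.0.16 (R 4.3.3) after TMM scaling, in a quasi-likelihood model with 6 group means over all 24 samples. The 8 toxin-treated samples thus took part in the scaling, the gene filter, the average level used for naming and the estimate of spread. They were not part of the difference tested. With only the 16 samples 28822 genes were tested, and the smallest adjusted p by edgeR was 0.256. Of 39183 genes with any count, 30564 with 10 or more counts in all were tested. The mean of the 3 MSC groups minus BCP was tested, with Benjamini-Hochberg adjustment over all genes tested, and log2 CPM used a prior count of 2. The SE of a difference is its absolute log2 fold change divided by the square root of F, so it adds nothing to the F test. Single genes were also tested by exact two-sided permutation of 12 against 4 samples (scipy 1.17.1). DESeq2 1.42.0, which the authors used for their own comparisons, and limma 3.58.1 were alternatives, beside other normalization, filters, covariates, a replicate block and fits without 1 sample. Covariates and offsets for gene length, and fits without 3 or 4 samples, were added after the data were seen. The script was tested on simulated data for this comparison over 29672 genes, where an adjusted p under 0.05 was reached by 43 of 50 genes changed 4-fold and 17 of 50 changed 2-fold. In all 90 of 200 changed genes were called, and 10 unchanged genes as well. The changed genes were at 1 CPM or more on average, and the simulated samples differed by independent noise and depth alone. These shares need not hold for the real samples.

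The comparison and the gene lists were chosen with earlier results of these data known. Named were the 10 higher and 10 lower genes of smallest p among those with a log2 fold change over 1, the same sign in the 3 groups and an average log2 CPM of at least 0, clone-named genes, receptor and antibody segments and pseudogenes left out. Of each list the gene of smallest p was named, and up to 2 more where 3 or more passed, beside genes the study compared with BCP, which gave 73 genes. A further 13 were named after their values were seen not to overlap, and 2 of these 86 are not reported here. Other list members are given as examples of their list. Promoters came from RefSeq on GRCm38.p6.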

Additional observations from a re-analysis of the deposited data

Results flagged for a closer look

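Within groups of 4 samples, 25 of 463 sets of values had 1 sample far from the other 3 by Dixon's criterion at 95%, and chance gives about 1 in 20. BCP+MSC replicate 4 stood out for Ibsp, at 15.4 CPM against 0.305 to 0.546 in the other 3. BCP+MSC replicate 2 was far from its group in 4 respects. It was low for the skeletal muscle list, with a mean log2 CPM of 2.69 against 7.98 to 8.61, for Cox7b, at 44.4 CPM against 110.2 to 129, and for mt-Atp6, at 0.443 CPM against 2.32 to 2.67. It was the only BCP+MSC sample with counts of the hair keratin Krt25, at 0.107 CPM.

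BCP replicate 4 stood apart for the adipocyte list, with a mean log2 CPM of 2.58 against 6.52 to 7.01 in the other BCP samples. It was high for Il1r2, at 33.8 CPM against 20.2 to 21.7, and for Lacc1, at 53.2 CPM against 47.9 to 48.2, and low for Saal1, at 7.93 CPM against 9.54 to 9.60. BCP replicate 1 was low for Trib3, at 2.86 CPM against 6.74 to 7.18, and BCP replicate 3 high for Ccl4, at 42.5 CPM against 18.5 to 20.9.

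BCP+MSC+Treg replicate 4 was high for Tmem196, at 3.37 CPM against 0.405 to 0.574, for Neurog2, at 3.95 CPM against 0.453 to 0.504, and for Inhba, at 11.3 CPM against 1.20 to 1.66. It was low for Ighg2c, at 0.74 CPM against 3.3 to 4.25, and for the clock list, with a mean log2 CPM of 3.87 against 4.16 to 4.18. BCP+MSC+Treg replicate 1 was high for Ucp1, at 225 CPM against 0.0486 to 0.247, and for the endothelial list, with a mean log2 CPM of 5.16 against 4.76 to 4.82. BCP+MSC+Treg replicate 2 was high for the immediate early list, with a mean log2 CPM of 6.05 against 5.72 to 5.74.

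Among the BCP+MSC+RvE1 samples, replicate 3 was high for Apol9a, at 6.62 CPM against 4.09 to 4.44, and replicate 1 for Cox7b, at 176 CPM against 108 to 114, and for the skin list, with a mean log2 CPM of -0.78 against -2.46 to -2.22. Replicate 2 was low for Tnfsf11, at 1.87 CPM against 3.3 to 3.57, and for Anks1, at 27.3 CPM against 44.3 to 45.0. Replicate 4 was high for the T and NK cell list, with a mean log2 CPM of 2.30 against 1.21 to 1.33.

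The difference to BCP was unequal among the 3 MSC groups for 4 named genes by edgeR at an unadjusted p under 0.05, and for none after adjustment. The p was 0.00128 for Ucp1, 0.00504 for Cry1, 0.0232 for Ibsp and 0.035 for Fosb.

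In the 8 toxin-treated samples, which also carried MSC and were not compared above, 7 of the 28 named genes that passed as higher in MSC-bearing constructs lay above the BCP range in every sample. Their lowest values were 51.1 CPM for Nr1d1, 77.6 CPM for Saa3, 14.1 CPM for Trib3 and 185 CPM for Bnip3. They were 72.4 CPM for Mt2, 162 CPM for Pdk4 and 383 CPM for Mt1. The 28 genes had passed against the same BCP values, and the share over all genes is not given here, so the count is no further evidence. Toxin and MSC were both present in these samples and cannot be told apart.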

How the results depend on the processing

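Of 2749 values of the 86 genes chosen for naming under 32 alternative settings, 2398 kept their direction and their side of the unadjusted threshold, 221 lost the threshold, 118 gained it and 12 changed direction. Of 992 list medians 985 moved by less than the spread between samples, a spread that leaves room for large shifts. Over the 32 settings the nuclear respiratory chain median ran from 0.12 to 1.12. That of fibrous matrix ran from -0.57 to -0.061 and that of immediate early genes from -1.09 to 0.38. Counts below give genes higher and lower at an unadjusted p under 0.05 and a log2 fold change over 1 (1189 and 1105), those with the same sign in the 3 groups (1189 and 1083) and those past the threshold in each of the 3 comparisons (203 and 124), and only counts that moved by over 1.5 times are given. With the 12 samples as 1 group 723 genes were lower, and the higher share of calls was 65.6%. With filterByExpr 792 were higher and 508 lower, 792 and 503 with the same sign, and 114 higher in each comparison. With a covariate for library size 715 were lower, 702 with the same sign and 59 in each comparison, and the higher share was 62.6%. With one for sex-linked genes 96 were higher in each comparison. With one for muscle genes 619 were higher, 619 with the same sign, and 116 and 59 passed in each comparison. With one for the share of short genes there were 377 and 543, 377 and 531 with the same sign, and 86 and 59 in each comparison. Length offsets gave 574 higher, 574 with the same sign and 88 in each comparison. DESeq2 on 24 samples gave 676 lower, 673 with the same sign, and 13 and 54 at an adjusted p, and on 16 samples 693, 690, and 14 and 67. Without the 3 samples highest in immediate early genes 1 gene was lower at an adjusted p by edgeR and 70 were lower in each comparison. Without the 4 samples under 20000000 counts there were 355 and 465, 355 and 457 with the same sign, and 78 and 21 in each comparison. The cause of these shifts was not tested. Without 1 sample at a time the counts ran from 646 to 1592 higher and 725 to 1362 lower, 646 to 1592 and 710 to 1345 with the same sign, and 103 to 481 and 31 to 214 in each comparison, with 0 higher and 0 to 2 lower genes at an adjusted p by edgeR, the 2 without BCP replicate 1 or 3. The lowest of the first counts came without BCP replicate 4. No gene passed an adjusted p for a difference among the 3 groups in the fits that tested it, which leaves out DESeq2 and the fit of the 12 samples as 1 group.

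Directions turned with the short gene covariate for Hba-a2 (-1.36), H2-DMa (-0.22) and Ccl4 (-0.026). They turned without the 3 samples for Ccn1 (1.23), Il6 (1.15), Nr4a1 (0.57), Cxcl1 (0.54), Fosb (0.35) and Inhba (0.040), without the 4 samples for Tnfsf11 (0.042) and Gata2 (-0.0031), and without BCP replicate 4 for Inhba (0.15), whose fits without 1 sample ran from -2.24 to 0.15. In the replicate block fit, on the 22 samples whose labels share a number, 677 genes were lower, 668 with the same sign and 69 in each comparison, and the higher share was 62.1%. Same-numbered samples did not all deviate together, with 24 correlations from -0.60 to 0.62, a median of 0.073 and 12 over 0.1, so the number was not taken as a pairing. In BCP+MSC+RvE1 against BCP+MSC+Treg all 4 were over 0.1, and against BCP 1, 1 and 3 of 4 were in BCP+MSC, BCP+MSC+RvE1 and BCP+MSC+Treg. Depth limited what could be seen below 0.284 CPM in the shallowest sample.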

Other observations

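In the 8 toxin-treated samples, also on MSC-bearing ceramic, the named genes whose values did not overlap between MSC-bearing samples and BCP were divided. Of the 4 higher ones 0 lay above the BCP range in 8 of 8 samples. Of the 12 lower ones 8 lay below the BCP range in 8 of 8 samples, among them Lipa, Lacc1, Nrarp, Vps37b and Rab11fip1, and 2 more, Col28a1 and Snx12, in 7 of 8. Of all 35 named genes that passed as lower, 10 lay below the BCP range in 8 of 8, Has2, Egr3 and Cdh11 among them. Per2, below the BCP range in 12 of 12 samples without toxin, ranged from 19.3 to 42.7 CPM with a median of 30.5 CPM in these 8, none of them below the BCP range and 3 above it. Ibsp ranged from 0 to 0.241 CPM with a median of 0.0514 CPM, with 4 of 8 above the BCP range. Vcam1 ranged from 33.0 to 76.5 CPM with a median of 65.0 CPM, with 3 below and 2 above the BCP range, and Mertk from 45.5 to 187 CPM with a median of 105 CPM, with 2 below and 4 above. Nr4a3 was below the BCP range in 7 of 8 and Nr4a2 in 6 of 8, at 2.22 to 4.33 CPM with a median of 2.66 CPM, and Ngfr in 6 of 8, at 0.895 to 7.18 CPM with a median of 2.09 CPM. The genes counted here passed or did not overlap by the same BCP values, and the share over all genes is not given. The counts are thus no further evidence, and these values were not tested.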
